A study of Homo sapiens with 6 samples.

Results

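Nuclear receptors are transcription factors whose activity is set by small fat-soluble ligands or, in the orphan members, by other means, and coregulators are the proteins they recruit to raise or lower transcription. The genes described here are 41 such receptors and coregulators, chosen by name with earlier results of these data known. A probe of the array was annotated to 28 of the 41. Of these, 25 genes, read by 31 probes, had a detection p under 0.01 on 3 or more of 6 arrays and were tested, among 9841 genes tested in all. PGC1A, encoded by PPARGC1A, is itself a coactivator. It is known for docking on PPARs, ERRs, HNF4A, thyroid hormone and retinoid X receptors, and for switching on mitochondrial and oxidative genes through them.

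The RNA came from a PC3 line labelled as able to express PGC1A under doxycycline. PC3 is an established cell line of human prostate cancer. Cells without doxycycline gave 3 arrays, and cells kept on it for 2 passages gave the other 3. Since no doxycycline-treated cells without the PGC1A construct were analysed here, the drug and PGC1A cannot be told apart. The labels do not say whether the line is 1 clone, nor whether replicates came from separate cultures, so the spread behind each p may be technical only.

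The arrays detected from 15029 to 16012 probes. Of 6 listed epithelial markers 5 had an annotated probe and 4 were kept (KRT8, KRT19, EPCAM and CDH1). Those 4 were detected on all 6 arrays. No gene of the list of androgen receptor and its luminal prostate targets had an annotated probe. Of the fibroblast, leukocyte, endothelial and neuroendocrine markers 3, 2, 1 and 1 were tested, and none passed in either direction, though the neuroendocrine marker ENO2 (log2 change -0.45, adjusted p = 0.281) did with the replicate block (adjusted p = 0.0474). The part of this in the results below was not tested. Doxycycline replicate 2 stood apart on the first principal component (35.3% of the variance), at 20.1 against -11.1 to 2.89 for the rest. On the second (32.9%) the groups were apart, at 3.65 to 12.5 without doxycycline and -15.7 to -2.96 with it. Doxycycline replicate 1 was the lowest there. The PPARGC1A probe lay near background, with a log2 change of 0.04 (SE 0.211, adjusted p = 0.951, limma). Whether this probe reads the construct was not analysed here, and it checks no label.

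With doxycycline, no tested receptor or coregulator passed the threshold of an adjusted p under 0.05 (limma, Benjamini-Hochberg over all 9841 genes), against 53 genes, or 0.539%, over the whole table (0.437% higher and 0.102% lower). The fitted log2 changes lay between -0.40 for ESR2 and 0.27 for NR1D2. Those with an unadjusted p under 0.05 were ESR2, RXRA, RXRB and PPARG, with log2 changes between -0.40 and -0.19, and the ferritin receptor NCOA4, with one of 0.26. In RNA from whole cultures, fewer cells with a transcript and less of it per cell cannot be told apart. The genes at that unadjusted level were 5 of the 25, or 20% (1 higher and 4 lower with doxycycline), where 14.7% of all genes reached that level (8.09% higher and 6.61% lower). The arrays of the 2 groups did not overlap in 7 of the 25, or 28% (1 higher and 6 lower), beside 21.5% of all genes (10.2% higher and 11.3% lower). ESR2, which is in both counts, was detected on no array with doxycycline and entered the test through the other group alone. Taken as same-numbered pairs, 16 of the 25, or 64%, differed in 1 direction in all 3 pairs, as did 47.1% of all genes. Of the 16, 5 were higher and 11, ESR2 among them, lower with doxycycline. The share of 47.1% was not split by direction, so the 5 and 11 have no measure beside them. The labels do not say that a replicate number marks a pair. Over the 25 the median log2 change was -0.04, with 7 above 0, and over all genes it was -0.03, with 43.4% above 0.

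In size the differences of the 25 were like those of the table at large: the median absolute log2 change was 0.112 for them and 0.113 for all genes. Only ESR2 had a fitted absolute log2 change of 0.3 or more, which 9.96% of all genes had. The 95% intervals of the 25 log2 changes had a median half-width of 0.23, and since calls were adjusted over all genes, fitted differences larger than that did not pass either. For the 24 genes detected in both groups the intervals, unadjusted for their number, lay within -0.47 (the lower end for RXRA) and 0.58 (the upper end for NR1D2). No such limit holds for ESR2. When replicate number entered the fit as a block, 177 genes passed over the whole table (1.8%) and again none of the 25, of which 8 then had an unadjusted p under 0.05 beside 23.1% of all genes. The count of 5 was 3 without no-doxycycline replicate 2, when 9.95% of all genes reached that level, and 2 without no-doxycycline replicate 3, when 10.1% did. Leaving out doxycycline replicate 2, which stood apart, gave 5 again, beside 15.2% of all genes.

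**Figure D1:**
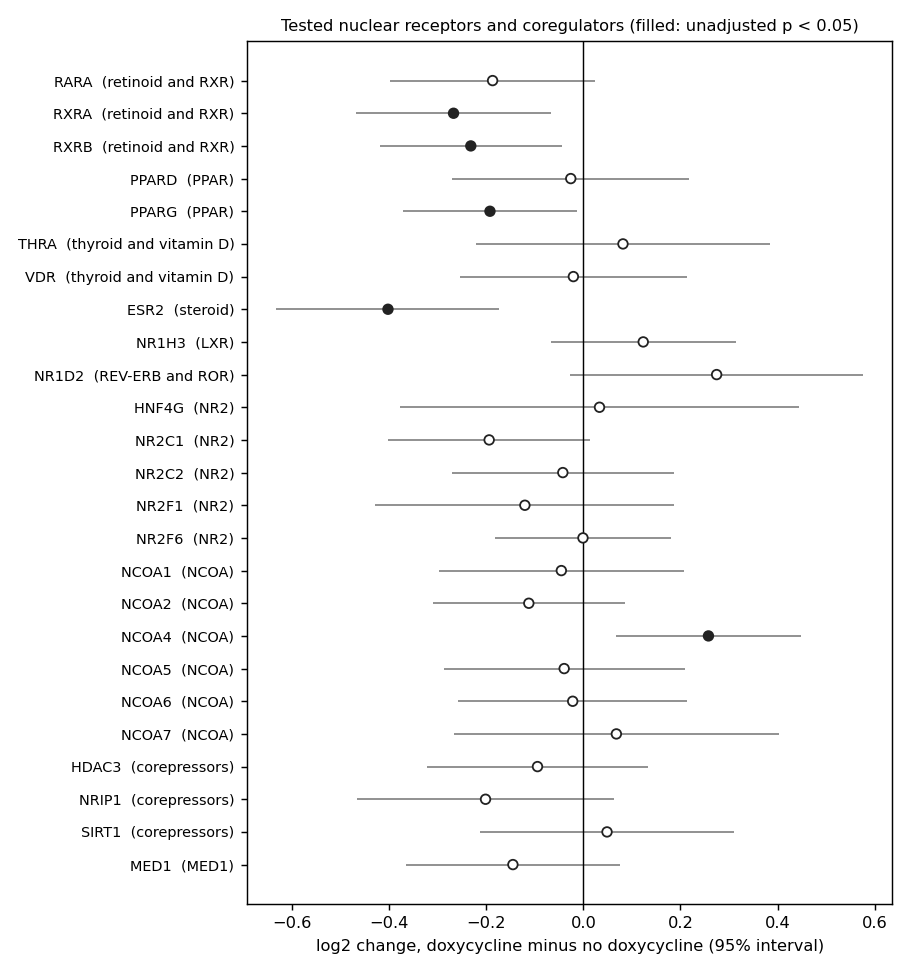
Log2 change (doxycycline minus no doxycycline) of the 25 tested genes with its 95% interval from limma, grouped by role, with filled points for an unadjusted p under 0.05. The points lie between -0.40 (ESR2, not detected with doxycycline, so that its point and interval set no limit) and 0.27 (NR1D2), and none passed after adjustment over all genes.

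**Figure D2:**
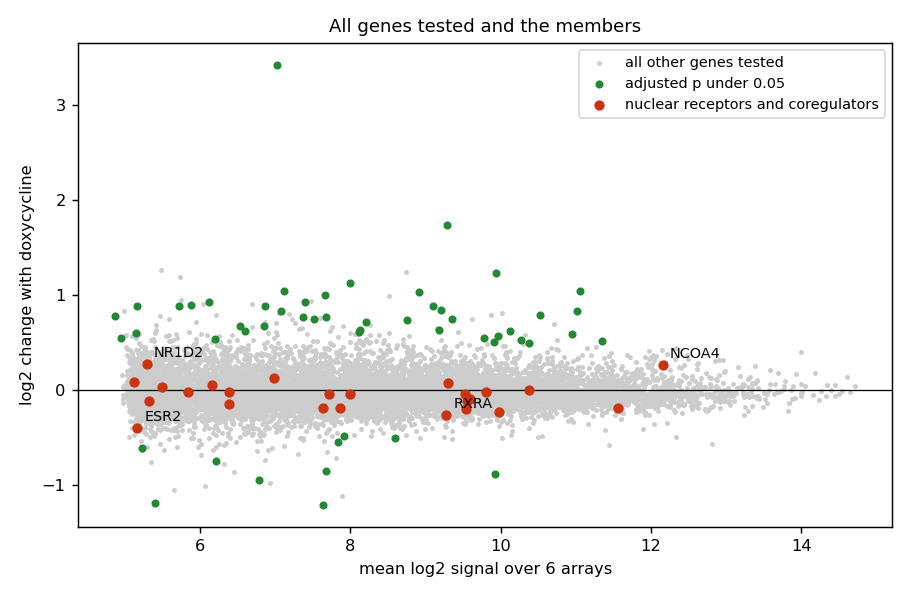
Log2 change against mean log2 signal over 6 arrays for the 9841 genes tested, with the 53 called genes in green and the 25 receptors and coregulators in red. The red points lie within the grey cloud of the other genes.

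All 3 tested retinoid receptors had a negative log2 change. RXRA and RXRB are the common partners with which PPARs, LXRs, the thyroid hormone receptors, the vitamin D receptor and the retinoic acid receptors pair on DNA. For RXRA the log2 signal was 9.42, 9.39 and 9.42 without doxycycline (replicates 1 to 3) and 9.25, 9.02 and 9.15 with it. Every array with doxycycline lay below every array without it. The log2 change was -0.27 (SE 0.087, 95% interval from -0.47 to -0.07), which is 0.831 times the level without doxycycline, and it did not pass (adjusted p = 0.237, limma). RXRB read 10.08, 10.09 and 10.09 without doxycycline and 9.75, 9.93 and 9.89 with it. Its groups were also apart, and the no-doxycycline arrays were close together (SD 0.00355, n = 3) while the doxycycline arrays spread more (SD 0.0924, n = 3). The log2 change of RXRB was -0.23 (SE 0.0812, adjusted p = 0.263, limma).

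RARA, which binds retinoic acid and pairs with an RXR, went from 7.96 ± 0.08 (SD, n = 3) to 7.77 ± 0.11 (SD, n = 3) on the log2 scale. That is a log2 change of -0.19 (adjusted p = 0.394, limma). Its groups overlapped, while each of the 3 same-numbered pairs was lower with doxycycline. Neither RARB nor RARG had an annotated probe. Of the 14 listed target genes of these receptors 4 were tested, with a median log2 change of -0.14 and none called. CRABP2, which carries retinoic acid to its receptor, was at -0.36 (adjusted p = 0.117). CYP26A1, which breaks retinoic acid down, was at -0.23 (adjusted p = 0.51). It lay at the background edge, detected on 2 of the 3 arrays without doxycycline and 1 of the 3 with it.

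PPARG, the lipid-sensing receptor best known for driving fat cell formation, was read by 2 tested probes that differed in sign. The probe that stands for the gene read 11.70, 11.66 and 11.60 without doxycycline and 11.49, 11.40 and 11.49 with it. Its groups did not overlap, and the log2 change was -0.19 (SE 0.0773, adjusted p = 0.314, limma). The other probe, annotated to another transcript of the gene, read 8.10, 7.95 and 8.19 without doxycycline and 8.29, 8.19 and 8.18 with it. Those groups overlapped and the log2 change was 0.14 (adjusted p = 0.53, limma over all 15542 probes, of which 0.682% were called). For the mean of both probes the change was -0.03 (adjusted p = 0.905).

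PPARG and ESR2 were also the only genes of the 35 among the 41 with a promoter sequence in the RefSeq table (build GRCh38.p14, 250 bases before to 50 after a start) whose windows held the core letters of the element that ERR receptors bind. The searched motifs, on both strands, were that core, AAGGTCA, the longer ERR element TCAAGGTCA, which contains it, and direct repeats of AGGTCA spaced by 1 base (AGGTCANAGGTCA) or 4 bases (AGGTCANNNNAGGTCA). Over all 35116 windows 3.92% held the core, 0.353% the longer element, 0.0228% the first repeat and 0.0199% the second. These shares count windows, of which a gene can have several, so they are not comparable with a count of genes. None of the 3 longer motifs was in a window of the 35. A match is a description of letters, and no binding was measured. The 250 bases before 2 of the PPARG starts follow, at chr3:12287118-12287367 and chr3:12288810-12289059 (plus strand), then the ESR2 match with 10 bases before and 5 after it, at chr14:64283026-64283047 (minus strand). They are shown because no other gene of the 35 held the core. Capitals mark the core, which begins 185 and 15 bases before the PPARG starts and, as its reverse complement, at base 39 of the ESR2 transcript.
PPARG upstream start: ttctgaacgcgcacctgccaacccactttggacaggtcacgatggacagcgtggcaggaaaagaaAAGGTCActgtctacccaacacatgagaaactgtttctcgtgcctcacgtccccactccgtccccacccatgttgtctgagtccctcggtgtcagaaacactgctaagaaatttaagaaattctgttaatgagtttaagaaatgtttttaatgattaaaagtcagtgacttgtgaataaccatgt
PPARG downstream start: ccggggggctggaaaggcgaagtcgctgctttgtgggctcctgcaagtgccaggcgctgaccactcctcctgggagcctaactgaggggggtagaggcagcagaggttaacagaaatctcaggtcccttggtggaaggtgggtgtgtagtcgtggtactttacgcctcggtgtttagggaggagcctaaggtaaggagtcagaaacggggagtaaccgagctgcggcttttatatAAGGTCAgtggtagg
ESR2 site: aacattataaTGACCTTtgtgc

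PPARD, a PPAR that most tissues express, was near background, going from 5.86 ± 0.14 (SD, n = 3) to 5.83 ± 0.13 (SD, n = 3) with doxycycline, a log2 change of -0.03 (adjusted p = 0.927). Its other tested probe was at -0.07. PPARA, the PPAR of fasting and fatty acid oxidation, had no annotated probe. Among 21 listed PPAR target genes 11 were tested, with a median log2 change of 0.14 beside -0.03 over all genes and none called. At an unadjusted p under 0.05, 4 of the 11 were higher and 1 was lower, beside 8.09% and 6.61% of all genes. ACADM, a dehydrogenase of fatty acid oxidation, was at 0.44 (adjusted p = 0.118) and HADHA, a subunit of the trifunctional protein of the same pathway, at 0.30 (adjusted p = 0.174).

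ESR2, oestrogen receptor beta, was detected without doxycycline only. Its log2 signal was 5.42, 5.21 and 5.48 without doxycycline and 5.02, 4.87 and 5.01 with it, where the dimmest detected probe of each array read between 5.07 and 5.21. In raw intensity these were 86.0, 82.9 and 89.3 against 70.7, 66.7 and 68.7. The probe was detected on all 3 arrays without doxycycline and on none with it, and entered the test through the former alone. Only a bound can be given for the size: mean signal was at least 1.19-fold higher without doxycycline, with no sampling error counted. The fitted log2 change, -0.40 (SE 0.0993, adjusted p = 0.133, limma), is no measure of that size. It was -0.20 without background correction (adjusted p = 0.241) and -0.21 on the deposited log2 table (adjusted p = 0.23). With the replicate block the adjusted p was 0.055.

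Of 10 listed oestrogen receptor target genes 6 were tested, with a median log2 change of -0.0021. TFF1, a secreted trefoil peptide, was detected on no array without doxycycline and on all 3 with it. Its mean signal was at least 1.19-fold higher with doxycycline, a bound with no sampling error counted. The fitted TFF1 difference did not pass (adjusted p = 0.125) and did with the replicate block (adjusted p = 0.0473). MYB was at -0.28 (adjusted p = 0.403). The glucocorticoid receptor NR3C1 was detected on 1 of 6 arrays on its 1 annotated probe and was not tested. Of 12 listed glucocorticoid target genes 8 were tested, with a median of -0.13 and none called. CEBPD was at -0.33 (adjusted p = 0.314) and KLF9, which is in the thyroid hormone list too, at -0.30 (adjusted p = 0.557).

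**Figure D3:**
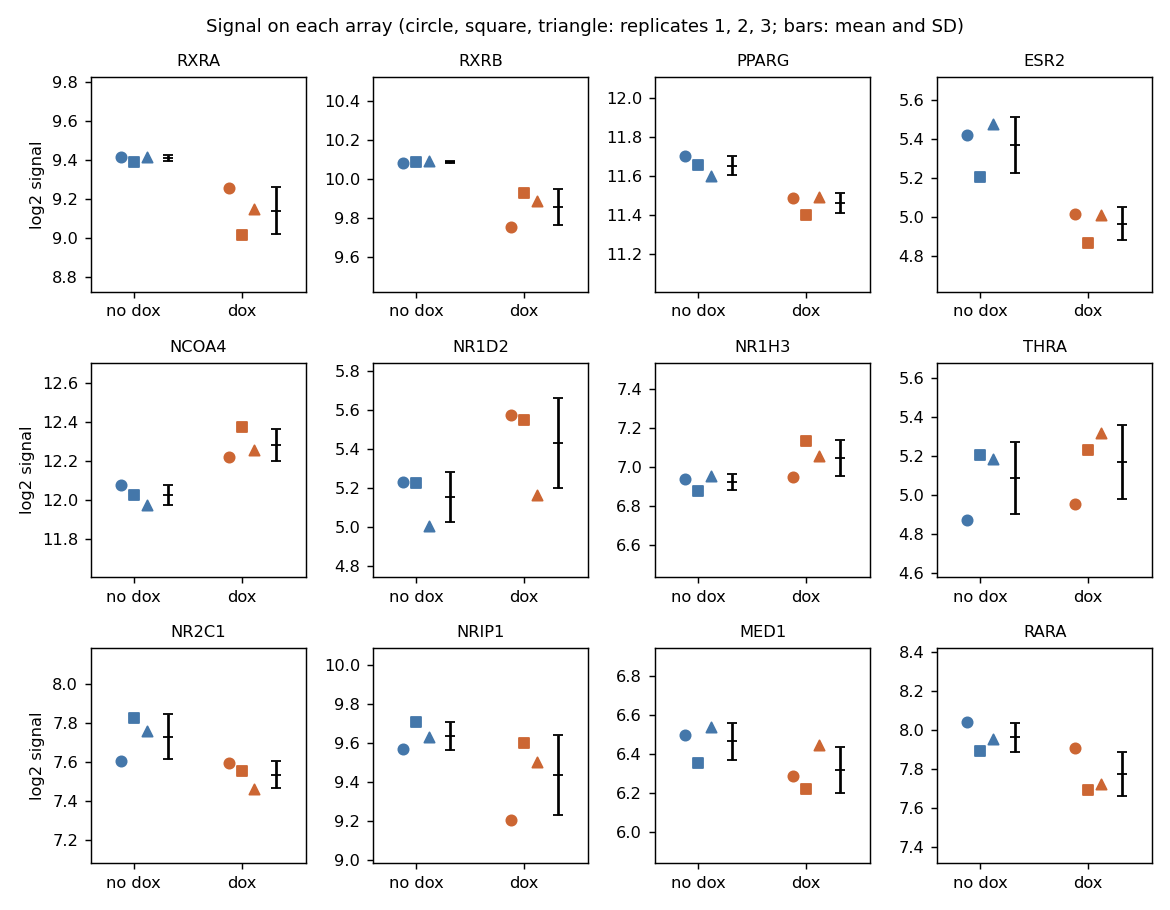
Log2 signal on each of the 6 arrays for 12 of the tested genes, with symbols for replicates 1 to 3, blue without and orange with doxycycline, and bars for mean and SD. Every panel spans the same height, and the groups do not overlap for RXRA, RXRB, PPARG, ESR2, NCOA4 and NR2C1.

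Neither tested receptor of the thyroid hormone and vitamin D group had a change past the threshold. THRA, thyroid hormone receptor alpha, lay at the background edge, at 4.87, 5.20 and 5.18 without doxycycline and 4.96, 5.23 and 5.32 with it, with detection on 2 of the 3 arrays of either group. The groups overlapped, with replicate 1 lowest in both, and all 3 pairs were higher with doxycycline. Its log2 change was 0.08 (SE 0.131, adjusted p = 0.807), and -0.03 without no-doxycycline replicate 1. VDR, the vitamin D receptor, was at 6.40 ± 0.16 (SD, n = 3) and 6.38 ± 0.07 (SD, n = 3), a log2 change of -0.02 (adjusted p = 0.94). THRB had no annotated probe.

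Thyroid hormone target genes were measured for 4 of 9, with a median of 0.14 and none called. The malic enzyme ME1 was at 0.46 (adjusted p = 0.0811) and BCL3 at 0.43 (adjusted p = 0.19), both with groups apart. Vitamin D target genes were measured for 5 of 12, with a median of -0.15, and none passed. CD14, also a leukocyte marker, was at -0.31 (adjusted p = 0.339) and IGFBP3 at -0.19 (adjusted p = 0.648). The CD14 probe was near background, detected on all 3 arrays without doxycycline and 1 with it.

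NR1H3, the oxysterol receptor LXR-alpha, read 6.94, 6.88 and 6.95 without doxycycline and 6.95, 7.13 and 7.06 with it. The lowest doxycycline array lay within the no-doxycycline range, all 3 pairs were higher with doxycycline, and the log2 change was 0.12 (SE 0.0825, adjusted p = 0.533, limma). In raw intensity replicates 1 and 3 were lower with doxycycline (163.7 and 176.3 without, 160.6 and 161.3 with it). NR1H2, LXR-beta, had no annotated probe. Of 12 listed LXR target genes 8 were tested, NR1H3 among them, with a median of 0.07 and 7 above 0. SMPDL3A, a phosphodiesterase, read 8.17, 8.30 and 8.17 without doxycycline and 8.67, 8.96 and 8.81 with it. Its groups were apart, and the log2 change of 0.60 (SE 0.0973) just missed the threshold (adjusted p = 0.0502) and passed with the replicate block (adjusted p = 0.0271). ABCA1, the cholesterol exporter, was at -0.50 (adjusted p = 0.369), so its sign differed.

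NR1D2, the clock repressor REV-ERB-beta, had the largest positive log2 change of the 25. It read 5.23, 5.23 and 5.01 without doxycycline and 5.58, 5.55 and 5.16 with it. Replicates 1 and 2 with doxycycline lay above every array without it, and replicate 3 did not. Within same-numbered pairs it was higher with doxycycline in all 3, by 0.35, 0.32 and 0.16. In raw intensity replicate 3 was lower with doxycycline (75.4 without and 72.4 with it). The log2 change was 0.27 (SE 0.13, adjusted p = 0.382, and 0.11 with the replicate block, limma), 0.14 without background correction and 0.14 with array weights. Of the arrays without doxycycline 2 detected this probe, and all 3 with it did. RORA, which competes with the REV-ERBs for the same elements, was detected on 1 of 6 arrays and not tested, and NR1D1 had no annotated probe. Of 15 listed clock genes 12 were tested, with a median of -0.0023, 6 on each side of 0 and none called. BMAL1, the clock activator that REV-ERBs repress, was at 0.27 (adjusted p = 0.294) and TEF at 0.24 (adjusted p = 0.295).

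Of the NR2 family 5 genes were tested and 4 had a negative change, all small. NR2C1, the testicular receptor TR2, read 7.61, 7.83 and 7.76 without doxycycline and 7.60, 7.55 and 7.46 with it. Its groups were barely apart, and the log2 change was -0.19 (SE 0.0901, adjusted p = 0.373). Its other tested probes were at -0.13 and 0.09, and the mean over the 3 at -0.08, so the probes did not share a sign. NR2C2, the related TR4, was at -0.04 (adjusted p = 0.873), with its other probe at -0.13.

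NR2F1, known as COUP-TF1, was at 9.61 ± 0.12 (SD, n = 3) and 9.49 ± 0.25 (SD, n = 3), a log2 change of -0.12 (adjusted p = 0.715). NR2F6, of the same COUP-TF family, was level in both groups, at 10.38 ± 0.07 (SD, n = 3) and 10.38 ± 0.02 (SD, n = 3), with a 95% interval of the log2 change from -0.18 to 0.18. HNF4G, the gamma form of the HNF4 fatty acid-binding receptors, was near background with a log2 change of 0.03 (SE 0.178, adjusted p = 0.945). NR2F2 had no annotated probe. NR6A1, a receptor of germ cells and early embryos, was detected on 2 of 6 arrays and not tested, and NR5A2 had no annotated probe. The same was true of NR4A1, NR4A2 and NR4A3, receptors induced by growth signals. Of 9 listed genes of their circle 4 were tested, with ENO3 at 0.08 (adjusted p = 0.748) and EGR1 at 0.09 (adjusted p = 0.853). EGR1 lay at the background edge, detected on 1 array without doxycycline and 2 with it.

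Among the coactivators, NCOA4 stood on the higher side. NCOA4 was named as an androgen receptor coactivator and is also the receptor that delivers ferritin to lysosomes, which frees its iron. It read 12.08, 12.03 and 11.97 without doxycycline and 12.22, 12.38 and 12.26 with it. Every doxycycline array lay above every array without it, in the raw intensities too (4858.9, 5263.0 and 4543.1 against 4417.0, 4395.6 and 4366.4). The log2 change was 0.26, or 1.2-fold (SE 0.082, 95% interval from 0.07 to 0.45), and did not pass (adjusted p = 0.229, limma). Over the alternatives its change lay between 0.21 and 0.29 and its adjusted p between 0.107 and 0.492.

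The p160 coactivators, which bind liganded receptors and bring in histone acetyltransferases, had no change past the threshold. NCOA1 (SRC-1) was at 7.74 ± 0.09 (SD, n = 3) and 7.69 ± 0.18 (SD, n = 3), a log2 change of -0.05 (adjusted p = 0.877). NCOA2 (TIF2) was near background at 5.38 ± 0.11 (SD, n = 3) and 5.27 ± 0.00376 (SD, n = 3). Its groups did not overlap, and the log2 change was -0.11 (adjusted p = 0.582). NCOA3 had no annotated probe. NCOA5, NCOA6 and NCOA7, which lie outside the p160 family, had log2 changes of -0.04, -0.02 and 0.07, with adjusted p-values of 0.89, 0.937 and 0.861 (limma). NCOA7 varied more between replicates (SD 0.22 and 0.21) than between groups.

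MED1, the Mediator subunit that contacts nuclear receptors, was read by 2 tested probes of opposite sign. On the probe that stands for the gene the signal was 6.50, 6.36 and 6.54 without doxycycline and 6.29, 6.22 and 6.45 with it, overlapping but lower in all 3 pairs, with a log2 change of -0.15 (SE 0.095, adjusted p = 0.525). The other probe, annotated to the same transcript, read 5.85, 5.73 and 5.93 without doxycycline and 6.20, 6.09 and 6.04 with it. There the groups were apart, with a log2 change of 0.27 (adjusted p = 0.238 over all probes, limma). For their mean the change was 0.06, so no direction holds for MED1. The other Mediator subunits were tested in 25 of 31, with a median of -0.07, 18 below 0 and none called. MED8 was at -0.30 (adjusted p = 0.174) and MED30 at -0.29 (adjusted p = 0.24).

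The proteins that restrain receptors showed no change past the threshold either. NRIP1, known as RIP140, represses nuclear receptor targets in metabolism and opposes PGC1A there. It read 9.57, 9.71 and 9.63 without doxycycline and 9.21, 9.60 and 9.50 with it, a log2 change of -0.20 (SE 0.115, adjusted p = 0.468, limma). The groups overlapped, each of the 3 pairs was lower with doxycycline, and doxycycline replicate 1 was the lowest array. Without that array the NRIP1 change was -0.09. HDAC3, the deacetylase of the NCOR complexes, was at 9.64 ± 0.14 (SD, n = 3) and 9.55 ± 0.09 (SD, n = 3), a log2 change of -0.09 (adjusted p = 0.699). SIRT1, which deacetylates PGC1A, was at 6.13 ± 0.17 (SD, n = 3) and 6.18 ± 0.12 (SD, n = 3), a log2 change of 0.05 (adjusted p = 0.873). NCOR1 had no annotated probe.

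Coregulators outside the 41 gave a like picture. Of 23 further coactivators 18 were tested, with a median log2 change of -0.04 and none called. The acetyltransferase EP300 was at -0.25 (adjusted p = 0.281) and TRIM24 at 0.22 (adjusted p = 0.298). Of 23 further corepressors 17 were tested, with a median of -0.09 and none called. CTBP2 was at -1.01 (SE 0.33, adjusted p = 0.238). Its arrays spread widely, at 5.88, 6.72 and 7.13 without doxycycline and 5.93, 5.06 and 5.70 with it, and overlapped. TBL1XR1, a subunit of the NCOR complexes, was at -0.25 (adjusted p = 0.271).

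Of 19 further nuclear receptors 4 were tested. ESRRA, the orphan receptor ERR-alpha and a main partner of PGC1A, read 8.01, 8.07 and 7.98 without doxycycline and 8.50, 8.61 and 8.45 with it. Its groups were apart with a log2 change of 0.50 (adjusted p = 0.0502, and 0.037 with the replicate block) and a 95% interval from 0.31 to 0.69. RORB, the ROR of retina and brain, had a log2 change of -0.57 with groups apart (adjusted p = 0.092). NR3C2 and NR2E1 were at 0.17 and -0.12, and the groups overlapped in both.

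Across the 13 related lists, which hold 207 genes, 125 genes were tested and none passed (limma). At an unadjusted p under 0.05 there were 24, or 19.2%, beside 14.7% of all genes, 13 higher and 11 lower. Their median log2 change was -0.05 with 42.4% above 0, beside -0.03 and 43.4% over all genes. With the replicate block 3 passed, all higher with doxycycline: ESRRA, SMPDL3A and TFF1. Of these TFF1 was detected with doxycycline only and entered the test through that group alone.

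**Figure D4:**
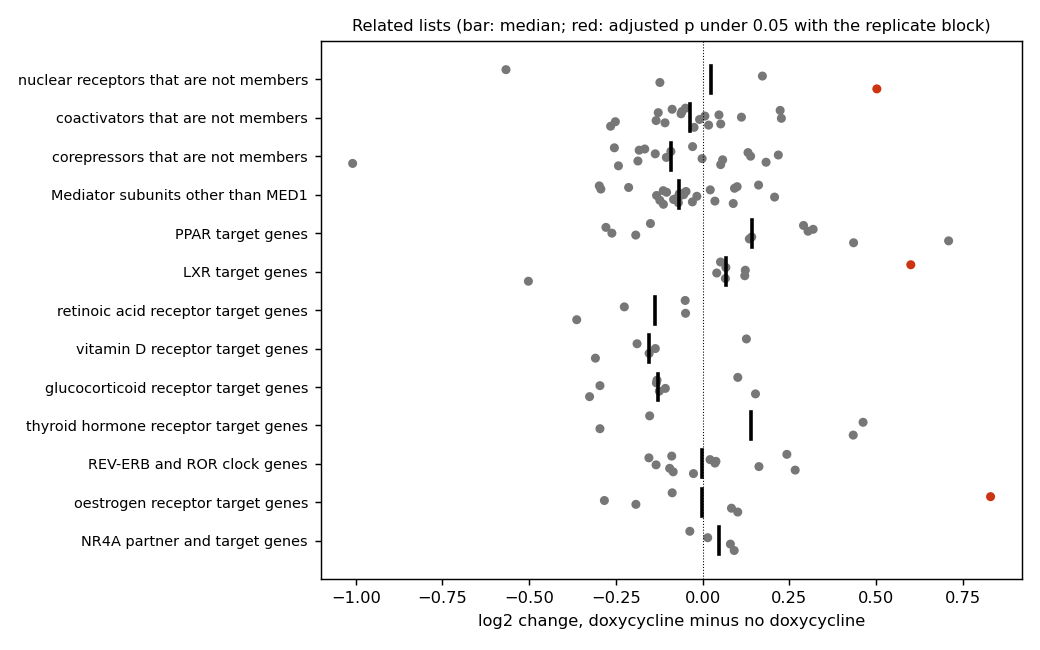
Log2 change of each tested gene of the 13 related lists, with a bar at each list's median and red points for an adjusted p under 0.05 with the replicate block. The medians lie between -0.15 for vitamin D receptor targets and 0.14 for PPAR and thyroid hormone receptor targets.

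**Figure D5:**
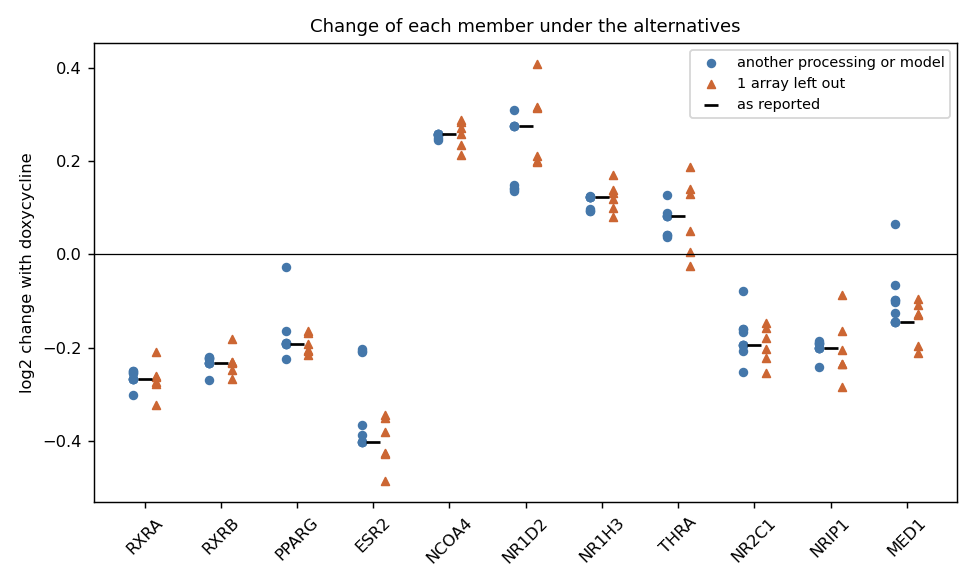
Log2 change of 11 tested genes as reported (black bar), under other processing or models (blue) and with 1 array left out (orange). RXRA, RXRB, PPARG, ESR2, NCOA4, NR1D2, NR1H3, NR2C1 and NRIP1 keep their sign throughout, while THRA and MED1 each cross 0 in 1 alternative. These are signs of the probe of highest mean or of the mean of probes. Read alone, the other PPARG probe was at 0.14 and 1 other NR2C1 probe at 0.09. ESR2 was not detected with doxycycline.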

How the data were processed

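RNA from the 6 samples was hybridised to Illumina bead arrays as biotin-labelled amplified RNA, per the labels' protocols. The authors deposited linear probe intensity for 47231 probes, whose array medians differ, and a detection p-value for each. They also deposited log2 values of 17925 probes, with equal column medians, for which the submitters' processing notes name lumi. Neither scanner software nor genome build is given in the sources used here.

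The platform annotation gave 1 gene to 13977 of those 17925 probes and several to 4, and 3944 were unlisted. Symbols were updated by Entrez number through RefSeq (GRCh38.p14), with 13970 matched. A gene described as having no annotated probe may be below background or read by an unlisted probe, which was not analysed here. These were RARB, RARG, PPARA, THRB, NR1H2, NR1D1, NR2F2, NR4A1, NR4A2, NR4A3, NR5A2, NCOA3 and NCOR1. RORA, NR3C1 and NR6A1 were named but not kept.

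Intensities were corrected by normexp on detection p (offset 16), quantile-normalized and logged with neqc of limma 3.58.1 (R 4.3.3). A gene was read by its kept probe of highest mean. The test was limma's lmFit and eBayes, two-sided, with Benjamini-Hochberg adjustment over all genes tested. It was checked on simulated data without replicate effects. The changes put in were larger than those of the receptors and coregulators, so the check does not cover changes of their size. Where no array of a group detected a probe, its level there is a bound, set per array by its own signal or the dimmest detected one, whichever is higher. Signals of different probes are not comparable, and the number of arrays limits the precision.

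Same-numbered arrays deviated together from their group means (correlations of 0.45, 0.52 and 0.30 over genes). The labels do not say what a replicate number marks. The numbers were taken as pairs on those correlations alone, and a fit with the replicate block was run as well. Values on every array are given for genes with an unadjusted p under 0.05, an absolute log2 change of 0.3 or more, or the largest change of their role. From each related list up to 2 genes of smallest p are named. Members and lists were chosen with earlier results of these data known. The alternatives covered background correction, offset, scaling, the deposited table, detection filters, the mean of probes, the block, a variance trend, array weights and each array left out.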

Additional observations from a re-analysis of the deposited data

How the results depend on the processing

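No receptor or coregulator passed in any of the 16 alternatives. The smallest adjusted p among them (limma) ranged from 0.055 to 0.371. Both ends are those of ESR2, which entered the test through the no-doxycycline group alone. Of the 25 tested, 12 kept their sign in every alternative that tested them, on the probe of highest mean or the mean of probes. Those that turned and are described above by array were THRA, at -0.025 without no-doxycycline replicate 1 and up to 0.187 without another array, and MED1, at 0.064 for the mean of its probes. The replicate block changed no call of the 25. The count of genes called over the whole table, 53 as reported, was 81 both on the deposited table and without background correction, 80 with an offset of 50, 34 with median scaling, 30 with no detection filter, 177 with the replicate block, 100 with a variance trend and 207 with array weights. It ranged from 1 to 9 with each array left out. Such a fit also has fewer arrays, so the drop does not show that the calls rest on the values of any 1 array. In the related lists, where none was called, 2 were without background correction, with an offset of 50, on the deposited table, with probes detected on all 6 arrays and for the mean of probes. Those counts were 3 with the replicate block, 3 with a variance trend and 4 with array weights, and ESRRA and SMPDL3A were among the called in each of these 8 settings. The median log2 change of the receptors and coregulators, -0.04 as reported, was -0.071 with median scaling and -0.061 with no detection filter, and ranged from -0.094 to -0.021 with each array left out. The median of all genes moved between -0.04 and -0.02 over the settings. ESR2, THRA, NR1D2, HNF4G, NCOA2 and PPARD lay near background, so signal over background limits what a change in them could show.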
